A study of Mus musculus with 21 samples.

Results

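The neurotrophin system was followed in mouse hippocampus through 5 genes, the ligand genes Bdnf and Ntf3 and the receptor genes Ntrk2, Ntrk3 and Ngfr. They were picked by name, are 5 of the 55487 genes in the count table, and all 5 passed the filter on low counts that left 18146 genes. Poly-A RNA was sequenced from the hippocampus of male wild type C57BL/6 mice, with 1 library per mouse. Maternal separation (MS, 9 mice) took the whole nest from the dam for 4 hr per day on postnatal days 10 to 17, with less nesting material in the home cage, and standard rearing (SR, 12 mice) was the control. All hippocampi were taken at 10 weeks. Litters were balanced to the same number of males, and the animal numbers fall into 7 sets of consecutive numbers, A to C in MS and D to G in SR. The labels do not name these sets as litters, and p-values over mice would be too small if littermates resemble each other.

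Neurotrophins are secreted growth factors that are made as longer proneurotrophins and cut to the mature form. BDNF binds TrkB, the product of Ntrk2, and neurotrophin-3, the product of Ntf3, binds TrkC, the product of Ntrk3. Ngfr encodes the low-affinity neurotrophin receptor, which binds all neurotrophins and binds the uncut forms tightly. In the hippocampus, Bdnf is transcribed in excitatory neurons from several promoters, some of which respond to neuronal activity through the factor CREB, and Fos is the usual marker of such activity.

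Because Bdnf and Fos are compared mouse by mouse below, the upstream DNA of both is shown, as the 250 bases before a transcription start in RefSeq on GRCm38.p6. RefSeq windows were matched for 4 of the 5 members, with 7 windows for Bdnf. Capitals mark TGACG, or its complement CGTCA, the core of the element that CREB binds, searched on both strands of windows that reach from 250 bases before to 50 bases after the start. Among the 7 Bdnf windows only 1 held it, at -35 from the start, and the Fos window held it at -129 and at -66. Of all 32817 windows, 20.8% held TGACG on either strand, so a match is no rare feature, and it is a description of the letters only.
Bdnf, chr2:109692186-109692435, plus strand: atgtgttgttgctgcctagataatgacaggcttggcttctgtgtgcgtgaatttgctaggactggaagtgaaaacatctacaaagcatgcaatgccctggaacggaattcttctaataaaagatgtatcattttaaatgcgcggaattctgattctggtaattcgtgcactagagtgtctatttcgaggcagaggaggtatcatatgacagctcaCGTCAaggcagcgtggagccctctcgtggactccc
Fos, chr12:85473640-85473889, plus strand: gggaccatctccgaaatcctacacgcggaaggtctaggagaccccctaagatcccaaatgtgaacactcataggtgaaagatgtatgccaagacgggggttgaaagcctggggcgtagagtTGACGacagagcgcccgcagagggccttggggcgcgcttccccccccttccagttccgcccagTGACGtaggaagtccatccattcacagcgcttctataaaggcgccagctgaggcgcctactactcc
The longer TGACGTCA, which holds TGACG and is present in 1.79% of all windows, was in none of the member or Fos windows, and neither was TGACTCA, bound by AP-1 and present in 5.2%. The E-box CACGTG, present in 7.15%, was in the first Ntf3 window at -231 and in no other window of a member or of Fos.

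Total counts per library lay between 17276810 and 30449055. The MS library MS5 stood apart, with a score of 27.07 on the first component of a PCA where the other 20 libraries lay between -12.18 and 11.91, and it was left out. Its 5 dentate granule cell markers summed to 78.65 CPM (counts scaled to the normalized library total) against 261 to 524 in the others. Its 7 striatal markers summed to 1969 CPM against 81.9 to 680. In the other 20, all 5 granule cell and all 6 CA pyramidal cell markers had a mean above 1 CPM. So did all 7 striatal, all 5 neocortical and all 6 choroid plexus markers, so these libraries also hold RNA of such cells. Libraries were numbered by accession, and the comparisons below used 8 MS and 12 SR mice.

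Levels differed widely between the members. Per kilobase of annotated exon, Ntrk2 was the most abundant, at 27.6 ± 1.65 CPM per kb (SD, n = 20), followed by Ntrk3 at 7.41 ± 0.498, Bdnf at 6.36 ± 1.00, Ntf3 at 3.02 ± 0.896 and Ngfr at 0.598 ± 0.238. Ntrk3 exceeded Bdnf in 18 of 20 mice and their ranges overlapped, whereas every other pair of neighbours in this order was separated in all 20 mice. Ntrk2 stood at the 91.1 percentile of the genes tested and Ngfr at the 16.0 percentile. Exon lengths merge all transcripts (11 for Bdnf, 10 for Ntrk2, 20 for Ntrk3), so a gene that uses few of its exons is understated on this scale. Gene counts do not separate the full-length from the truncated forms of TrkB and TrkC.

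The members also differed in how much they varied from mouse to mouse. The coefficient of variation of CPM over the 20 mice was 5.96% for Ntrk2 and 6.72% for Ntrk3, 15.8% for Bdnf, 29.7% for Ntf3 and 39.8% for Ngfr. Counting error alone gives 0.839% to 1.05% for Ntrk2 and 2.97% to 4.54% for Bdnf. For Ngfr, with 22 to 85 counts per library, it gives 10.8% to 21.3%, and for Ntf3, with 47 to 162 counts, 7.86% to 14.6%.

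The first comparison asked whether the neurotrophin system differed between adult MS and SR mice. None of the 5 members passed an adjusted p of 0.05 in edgeR's quasi-likelihood test (18146 genes, Benjamini-Hochberg), nor in DESeq2's Wald test. The background was sparse in edgeR, which called 2 genes, or 0.0110% of those tested, and larger in DESeq2's test, which called 119. DESeq2 gave 39023 genes a p-value but adjusted over fewer, as its default filter sets aside genes of low mean count. At an unadjusted p under 0.05, 1 of the 5 members (Ntrk3, lower in MS) stood beside 11.5% of all genes, of which 6.62% were higher and 4.92% lower in MS. The median log2 fold change of the 5 members was -0.06, and that of all genes tested was 0.00.

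**Figure D1:**
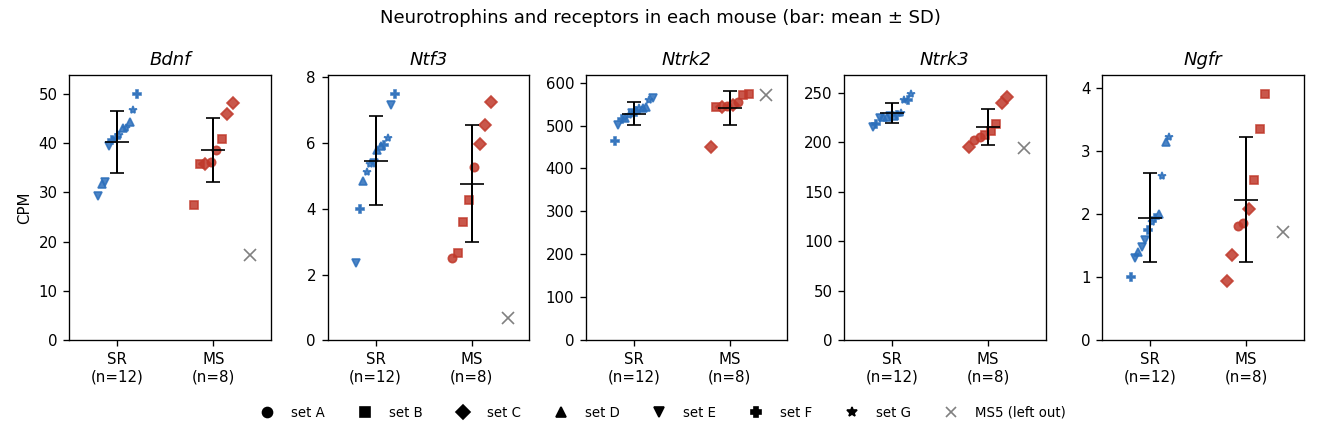
CPM (vertical axes, from 0) of the 5 members in each of the 12 SR mice (blue) and 8 MS mice (red), with the set of animal numbers as the symbol and the mean ± SD as black bars; the grey cross is MS5, which was left out. The groups overlap for every member, 5 of the 8 MS mice lie below the lowest SR mouse for Ntrk3, and MS5 lies at 17.2 CPM of Bdnf and 0.692 CPM of Ntf3.

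Bdnf (ENSMUSG00000048482, chr2:109674700-109727007, plus strand, GRCm38) had a lowest, median and highest value of 27.4, 37.4 and 48.1 CPM in MS and of 29.2, 41.2 and 49.8 CPM in SR. The groups overlapped almost fully, with 1 MS mouse below all SR mice and none above. Means were 38.5 ± 6.49 CPM in MS (SD, n = 8) and 40.2 ± 6.25 in SR (n = 12), with a log2 fold change of -0.06 (SE 0.103, adjusted p = 0.881 by edgeR). The 95% interval of the fold for total Bdnf mRNA was 0.828 to 1.12. With MS5, which had 17.2 CPM, the log2 fold change was -0.15 (adjusted p = 0.692 by edgeR). It was -0.11 without MS7, -0.17 without set C, 0.00 without MS1 and 0.0245 without set B, so its sign rests on set B. An antisense gene, Gm45346, shares 896 exonic bases with Bdnf. The strand setting of the counting is not given in the sources used here, so it is not known whether reads of the pair were separated.

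Ntf3 (ENSMUSG00000049107, chr6:126101412-126166910, minus strand) had 2.50, 4.77 and 7.23 CPM (lowest, median, highest) in MS and 2.36, 5.59 and 7.48 CPM in SR. All 8 MS mice lay within the SR range. Its log2 fold change was -0.19 (SE 0.201, adjusted p = 0.758 by edgeR), and with MS5, at 0.692 CPM, it was -0.35 (adjusted p = 0.643). The value depended on the sets, since it was -0.57 without set C (adjusted p = 0.151) and 0.0126 without set B (adjusted p = 0.992). It was -0.10 without MS4, -0.11 without MS1 and -0.31 without MS7.

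Ntrk2 (ENSMUSG00000055254, chr13:58806569-59133970, plus strand) had the smallest coefficient of variation over the 20 mice, with means of 541 ± 38.7 CPM in MS (SD, n = 8) and 528 ± 26.7 in SR (n = 12). MS mice ran from 450 to 572 CPM with a median of 547, and SR mice from 464 to 564 with a median of 530. The lowest MS value was that of MS7, and the next MS mouse had 542 CPM. The log2 fold change was 0.04 (SE 0.0419, adjusted p = 0.789 by edgeR), with a 95% interval of the fold from 0.965 to 1.09. Without MS7 it was 0.07 (adjusted p = 0.455), without set C 0.08, and without set B 0.00 (adjusted p = 0.999).

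Ntrk3 (ENSMUSG00000059146, chr7:78175959-78738012, minus strand) came nearest to a difference. MS mice had a lowest, median and highest value of 195, 209 and 245 CPM, and SR mice of 215, 226 and 248 CPM. Of the 8 MS mice 5 lay below the lowest SR mouse, and all 12 SR mice lay above the MS median. The remaining MS mice were MS3 at 218 CPM and MS8 and MS9, both of set C, at 245 and 239 CPM. Means were 215 ± 17.9 CPM in MS (SD, n = 8) and 229 ± 10.0 in SR (n = 12), with a log2 fold change of -0.09 (SE 0.0409, adjusted p = 0.396 by edgeR). Leaving out 1 mouse at a time gave -0.12 to -0.07, with no call. Without the 3 mice of set C the log2 fold change was -0.14 (adjusted p = 0.0426 by edgeR), the only setting that called a member, and in that setting 340 genes were called in all. MS5, not in these values, had 194 CPM, and the log2 fold change with it was -0.11 (adjusted p = 0.330).

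Ngfr (ENSMUSG00000000120, chr11:95568818-95587735, minus strand) had 0.949, 1.97 and 3.90 CPM (lowest, median, highest) in MS and 1.01, 1.82 and 3.23 CPM in SR. In MS 2 mice lay above the highest SR mouse and 1 below the lowest. The log2 fold change was 0.18 (SE 0.241, adjusted p = 0.824 by edgeR), and its 95% interval in fold, 0.798 to 1.61, is the widest of the 5 members. The 3 mice of set B averaged 3.27 CPM, and without them the log2 fold change was -0.29 (adjusted p = 0.787), so the sign of this value rests on that set. It was 0.02 without MS1 and 0.45 without set C (adjusted p = 0.328).

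**Figure D2:**
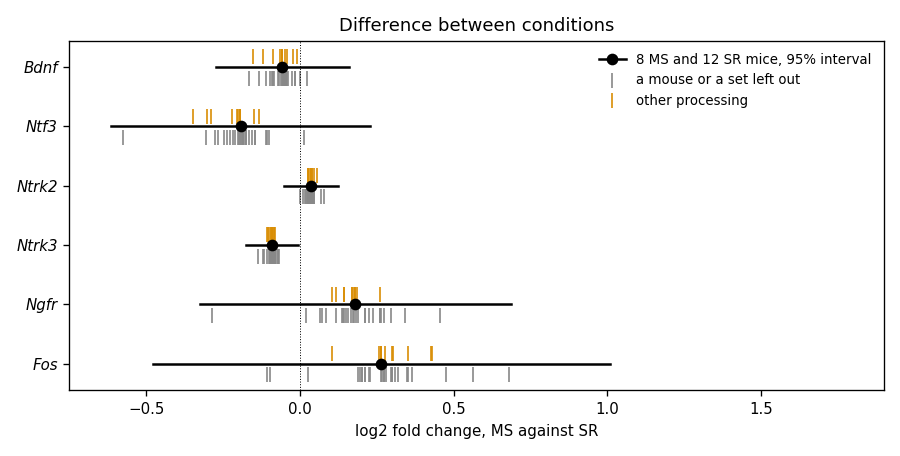
Log2 fold change of MS against SR (horizontal axis) for the 5 members and Fos, with black points and lines for the edgeR estimate and its 95% interval in 8 MS and 12 SR mice, grey ticks for fits without a mouse or a set, and amber ticks for other processing. The intervals of Ntrk2 and Ntrk3 are narrow, that of Ntrk3 ends just below 0, and those of Bdnf, Ntf3, Ntrk2, Ngfr and Fos include 0.

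The share of the variance of log2 CPM within conditions that lay between sets of animal numbers passed the test for none of the 5 members. It was 59.9% for Ngfr (permutation p = 0.0189, adjusted p = 0.0566 over 6 genes), 43.9% for Bdnf, 38.8% for Ntf3, 34.7% for Ntrk3 and 33.1% for Ntrk2 (permutation adjusted p = 0.238 for Bdnf and 0.3 for the others). With the sets permuted, the median share was 24.9% to 27.5%. Fos passed, with 67.2% between sets (permutation p = 0.00286, adjusted p = 0.0172) and set means from 4.46 CPM in set G to 19.3 CPM in set A. With MS5 included, Ngfr also passed (60.2%, permutation adjusted p = 0.0344).

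The genes around the members in the pathway were counted from 7 lists, which hold 133 different genes, 127 of them tested. None was called after adjustment by edgeR, and the smallest adjusted p among them was 0.211. At an unadjusted p under 0.05, 3 genes (2.36%) were higher and 10 (7.87%) lower in MS, beside 6.62% and 4.92% of all genes. The named genes below are those with the smallest p in each direction of a list, and none of their differences passed adjustment.

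Among 8 further ligands and receptors tested, 1 was higher at an unadjusted p under 0.05. This was Nradd, a relative of Ngfr with a death domain, at 2.25 ± 0.461 CPM in MS and 1.69 ± 0.345 in SR (log2 fold change 0.42, adjusted p = 0.240 by edgeR). Sorl1, a sorting receptor of the sortilin family, had a log2 fold change of -0.08 (adjusted p = 0.520).

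Of 14 genes for proneurotrophin processing, transport and release, 2 were lower at that p and none higher, and the median log2 fold change was -0.06. Htt, whose product huntingtin supports the transport of BDNF vesicles, had 200 ± 18.2 CPM in MS and 218 ± 11.3 in SR (log2 fold change -0.12, adjusted p = 0.289 by edgeR). Syt4, a synaptotagmin of BDNF vesicles, had a log2 fold change of 0.06. The adaptors and kinases that act below Trk receptors counted 44, with 2 lower and none higher and a median of -0.02. Gab2, a docking adaptor, had a log2 fold change of -0.16 (adjusted p = 0.289), and Map2k2, a kinase that activates ERK, of 0.08 (adjusted p = 0.457).

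Among 18 partners of the low-affinity receptor, 1 was higher and 2 were lower at the unadjusted p. Mapk10, a neuronal JNK kinase, had 306 ± 22.0 CPM in MS and 331 ± 7.91 in SR (log2 fold change -0.11, adjusted p = 0.211 by edgeR), and Adam17, a protease that sheds receptor ectodomains, had a log2 fold change of 0.13 (adjusted p = 0.375). Of 21 regulators of Bdnf transcription, 1 was higher and 4 were lower, with a median of -0.04. Mef2d, an activity-regulated transcription factor, had a log2 fold change of -0.10 (adjusted p = 0.289), and Rest, a repressor of neuronal genes, of 0.21 at 6.62 ± 1.11 CPM in MS and 5.73 ± 0.461 in SR (adjusted p = 0.331). None of 17 genes known to respond to BDNF had an unadjusted p under 0.05 in either direction, and their median was 0.05. Dusp6, a phosphatase that turns off ERK, had a log2 fold change of 0.09, and Dusp4, of the same family, of -0.04.

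The second comparison related Bdnf to Fos in each mouse. Fos (ENSMUSG00000021250, chr12:85473890-85477273, plus strand) had 5.89, 9.54 and 29.0 CPM (lowest, median, highest) in MS and 4.04, 8.65 and 23.9 CPM in SR. It did not pass the test between conditions, with a log2 fold change of 0.26 (SE 0.354, adjusted p = 0.825 by edgeR). Without MS4, the mouse with 29.0 CPM, it was -0.10 (adjusted p = 0.937). Likewise none of the 12 immediate early genes had an unadjusted p under 0.05, and their median log2 fold change was 0.11, with Btg2, an antiproliferative factor, at 0.15 (adjusted p = 0.572) and Egr1, a zinc finger transcription factor, at -0.04 (adjusted p = 0.973).

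Bdnf was lower in mice with more Fos. Pearson's r of log2 CPM over the 20 mice was -0.678 (permutation p = 0.00101, adjusted p = 0.00539 over 16 relations), and Spearman's rho was -0.746 (permutation p = 0.00024, adjusted p = 0.0018). SR10, which had the least Fos at 4.04 CPM, had 46.6 CPM of Bdnf. SR8, with 23.9 CPM of Fos, had 29.2 CPM of Bdnf. MS4, with the most Fos, had 36.2 CPM of Bdnf, and MS1, with the least Bdnf at 27.4 CPM, had 11.5 CPM of Fos. MS5, which was left out, had 23.8 CPM of Fos and 17.2 CPM of Bdnf, and r over all 21 mice was -0.704.

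**Figure D3:**
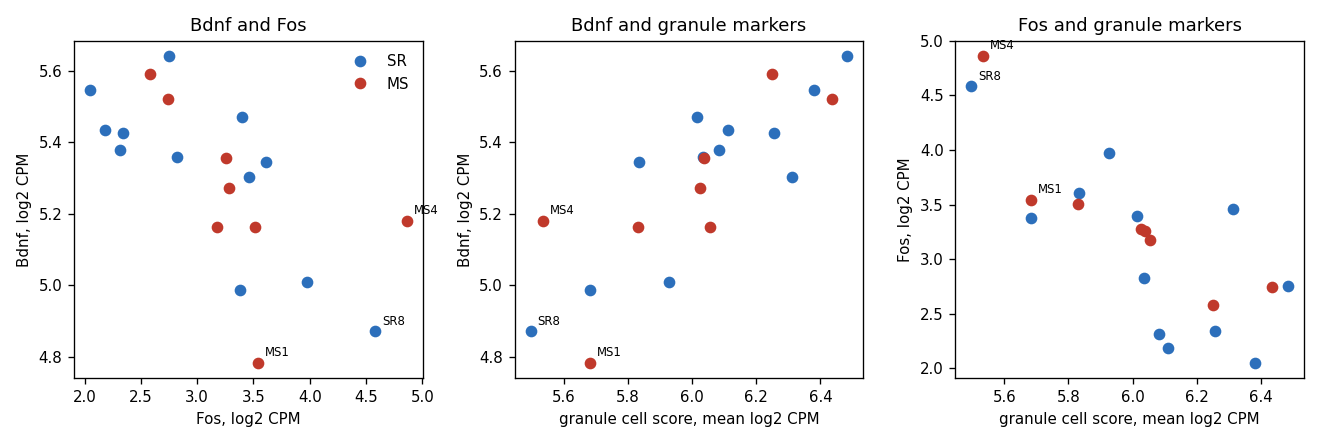
Log2 CPM of Bdnf against Fos (left), of Bdnf against the granule cell score (middle) and of Fos against the same score (right), where the score is the mean log2 CPM of 5 dentate granule cell markers and each point is 1 of 12 SR (blue) or 8 MS (red) mice. Bdnf falls with Fos (r = -0.678) and rises with the score (r = 0.823), Fos falls with the score (r = -0.778), and MS4 and SR8 are at the low end of the score.

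The relation was also computed within each condition. In SR alone r was -0.765 (permutation p = 0.00317, adjusted p = 0.0134, n = 12), and in MS alone it was -0.521 (exact permutation p = 0.186, adjusted p = 0.539, n = 8). The slopes of log2 Bdnf on log2 Fos were -0.189 in MS and -0.23 in SR, and their difference of 0.0408 was not detectable (permutation p = 0.803). Relative to condition means r was -0.672 (permutation adjusted p = 0.0111). Without MS4 and SR8, the mice farthest from the median of Fos, it was -0.663 (permutation adjusted p = 0.015, n = 18), and leaving out 1 mouse at a time gave -0.735 to -0.607, all past the threshold.

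Within sets of animal numbers the relation kept its sign but not its call. Relative to set means r was -0.553 (permutation p = 0.013, adjusted p = 0.0806), and over the 7 set means it was -0.794 (exact permutation p = 0.0357, adjusted p = 0.129). The animal numbers also form a low and a high range, and relative to range means r was -0.586 (permutation adjusted p = 0.0591). In the low range alone it was also -0.586 (permutation adjusted p = 0.0953). The high range holds 6 mice, 3 of each condition.

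Most other immediate early genes stood in the same relation to Bdnf. Of the other 11, 10 had a negative r and 8 passed the adjusted threshold by permutation, with r of -0.685 for Ier2, -0.662 for Dusp1, -0.617 for Npas4, -0.593 for Egr1, -0.589 for Egr2, -0.529 for Fosb, -0.519 for Nr4a1 and -0.509 for Egr4. Most of these encode transcription factors that neurons switch on within minutes of firing, Npas4 being one that acts on Bdnf itself. Arc, a synaptic plasticity gene (r = -0.415), Junb, a partner of FOS (r = -0.317), and Btg2 (r = 0.0666) did not pass. These genes share mice and libraries, so the 11 relations are not independent. Without the 2 mice farthest from the median of each early gene, 2 of the 11 passed, and relative to set means none did.

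Among the other members, Ntf3 was as closely related to Fos as Bdnf was, with r = -0.694 (permutation adjusted p = 0.00539). Ntrk3 followed with r = -0.514 (permutation adjusted p = 0.0312), while Ntrk2 (r = 0.306) and Ngfr (r = -0.251) did not pass. Neither Ntf3 nor Ntrk3 passed without MS4 and SR8 (r = -0.411 and r = -0.400). Relative to set means, r was -0.785 for Ntf3 (permutation adjusted p = 0.0715) and -0.0886 for Ntrk3 (permutation adjusted p = 0.652). As a description without a test, Bdnf and Ntf3 had r = 0.693 with each other relative to condition means, Bdnf and Ntrk2 -0.574, and Bdnf and Ntrk3 0.236 over the same 20 libraries.

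Marker levels of cell types moved with these genes. Bdnf had r = 0.823 with the granule cell score, the mean log2 CPM of Prox1, Dsp, C1ql2, Trpc6 and Stxbp6 (permutation p = 1e-05, the smallest that 100000 draws can give, adjusted p = 2.5e-05 over 5 relations; rho = 0.809). For Ntf3, which is known from granule cells, r was 0.847 (permutation p = 1e-05, adjusted p = 2.5e-05; rho = 0.802). Both held relative to set means (0.814 and 0.816) and without MS4 and SR8 (0.821 and 0.742). The receptors did not pass by r with the scores paired to them, which were astrocytes for Ntrk2 (r = -0.126), interneurons for Ntrk3 (r = -0.397, rho = -0.609, permutation adjusted p of rho = 0.00835) and fibroblasts and meninges for Ngfr (r = 0.441). In whole tissue, fewer granule cells and less of these mRNAs per granule cell cannot be told apart.

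For Fos the sign was the opposite. These pairs were chosen after the values were seen and are given as a description with no test. Fos had r = -0.778 with the granule cell score (rho = -0.791) and r = -0.625 without MS4 and SR8. It had r = 0.54 with the striatal score and r = 0.758 with the neocortical score. Bdnf had r = -0.825 with the striatal score, and -0.73 without MS1 and SR8. The neocortical and interneuron scores also moved this way, but how far they overlap with the striatal score was not tested. In MS5, with the most striatal markers, Foxp2 of the neocortical list had 31.5 CPM against 0.561 to 16.1 in the others. Scnn1a of the same list had 3.07 CPM there against 6.67 to 10.7. Relative to condition means, r with the neocortical score was -0.794 for Bdnf and -0.797 for Ntf3. With the interneuron score it was -0.605 for Bdnf, -0.698 for Ntf3 and 0.728 for Fos. Summed markers in the 8 MS and 12 SR mice spanned 261 to 485 and 264 to 524 CPM for granule cells and 81.9 to 680 and 88.1 to 425 CPM for striatal neurons. The highest striatal score was that of MS1 (6.20), the mouse with the least Bdnf and the most Ngfr, followed by SR8 (5.51). No granule cell or striatal marker passed the test between conditions.

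When Bdnf and Fos were each taken relative to a line on the granule cell score, an alternative added after the data were seen, their r was -0.107 (permutation p = 0.652, adjusted p = 0.996). All 12 early genes then lay between r = -0.262 and r = 0.139. Relative to a line on the striatal score, r of Bdnf with Fos was -0.490 (permutation p = 0.0284, adjusted p = 0.109). With the granule cell score as a term, the log2 fold change of MS against SR was -0.01 for Bdnf and -0.08 for Ntrk3 (adjusted p = 0.956 and 0.320 by edgeR). Why the scores differ between mice was not tested.

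**Figure D4:**
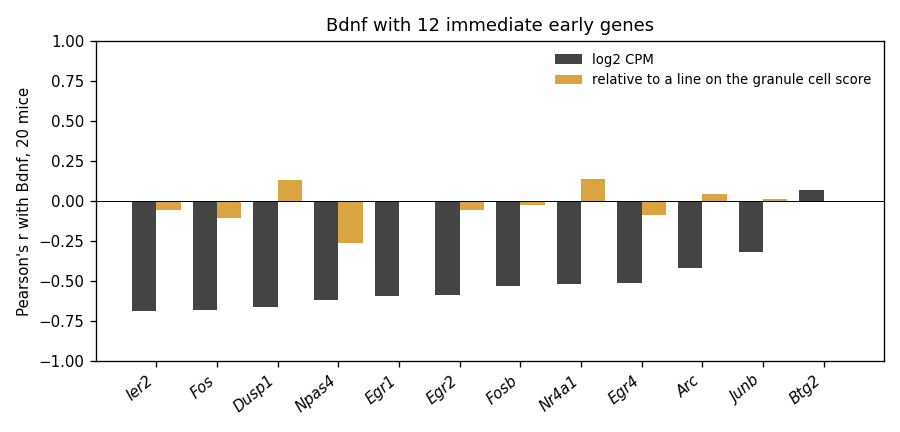
Pearson's r (vertical axis) of Bdnf with 12 immediate early genes over 20 mice, for log2 CPM (dark bars) and for both genes relative to a line on the granule cell score (light bars). The dark bars are negative for 11 of 12 genes and reach -0.685, and the light bars stay between -0.262 and 0.139.

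Further pairs of Ngfr and Ntrk2 were also chosen for their values and carry no test. Ngfr had r = 0.67 with the choroid plexus score (rho = 0.674), the highest of 14 marker scores for this gene relative to condition means, and 0.606 without MS8 and SR7. Summed choroid plexus markers ran from 51.8 to 4179 CPM in MS and from 27.7 to 4510 CPM in SR. All 6 markers had a higher mean in MS, with a median log2 fold change of 0.91, and none passed the test (smallest adjusted p = 0.549 by edgeR). The 3 mice of set B, on which the sign of the Ngfr difference rests, had the ranks 4 to 6 from the highest choroid plexus score among the 20 mice. MS6 and MS4 of set A, at ranks 2 and 7, had 1.85 and 1.82 CPM of Ngfr. At ranks 1 and 3, SR6 and SR9 had 3.15 and 3.23 CPM. Ntrk2, a long transcript, had r = 0.677 with the transcript length trend, the correlation over genes of a library's log2 CPM with log2 exon length (rho = 0.474). MS7, which had the least Ntrk2, also had the lowest length trend, and without MS7 and MS8 r was 0.59. Ntrk3 had r = 0.284 with the same trend. With the trend as a term, the log2 fold change of MS against SR was -0.12 for Bdnf, -0.30 for Ntf3, 0.06 for Ntrk2, -0.08 for Ntrk3 and 0.26 for Ngfr, and the smallest adjusted p among the 5 was 0.371 by edgeR. The part of these features in the members' levels was not tested further.

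**Figure D5:**
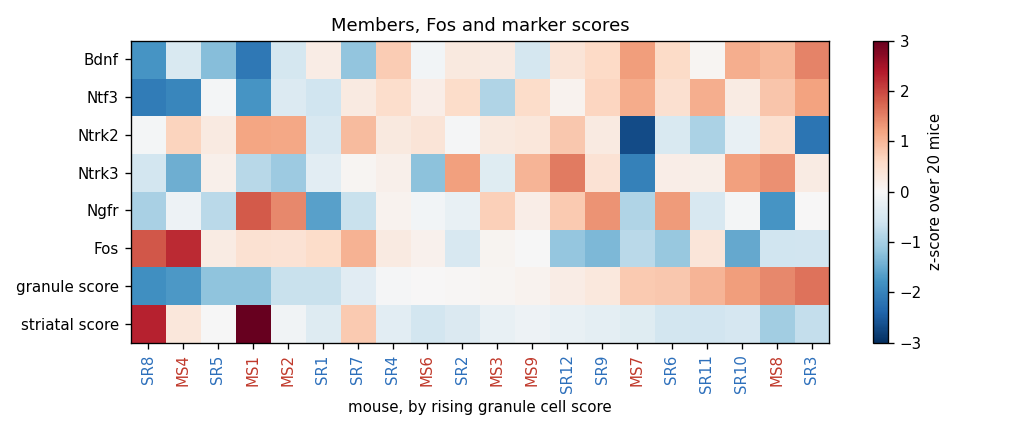
Levels of the 5 members, Fos and the granule cell and striatal scores in 20 mice, as z-scores of log2 CPM over mice (colour, which stops at 3 SD), with mice in rising order of the granule cell score and names in red for MS and blue for SR. Bdnf and Ntf3 rise from left to right with the score and Fos falls, while MS and SR mice are interspersed.

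The genes whose log2 CPM, relative to condition means, followed each member most closely over the 20 mice are given as a description. They come from 12143 genes with a mean of at least 5 CPM. For Bdnf they were Olfm1 (r = 0.909), Lefty1 (0.897), Zbtb18 (0.896), Nrn1 (0.894) and Evc2 (0.894). For Ntf3 they were Crls1 (0.923), Fkbp14 (0.916), Timm29 (0.912), Neurod1 (0.907) and Thy1 (0.906). For Ntrk2 they were Usp24 (0.900), Chd6, Nr2c2, L1cam and Tcp11l1 (0.885), and for Ntrk3 they were Tnr (0.896), Opcml, Mbd5, Nav1 and Fam171b (0.867). Ngfr, itself under 5 CPM, was followed by Dsg2 (0.905), Phactr2, Prelp, Plxnb2 and Ttc21a (0.853).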

How the data were processed

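Hippocampal poly-A RNA of 21 mice was measured. Per the labels and the study's methods, the authors aligned paired-end reads to GRCm38 with STAR 2.7.3a and assigned them to Ensembl genes with featureCounts, and they deposited raw counts with no normalization or filter. By the column names, the libraries shared 1 flow cell and lane. The mice were separate animals, and MS and SR come from their labels. The study removed 1 outlier without naming it. Here the library farthest out on the first component of a PCA (DESeq2 1.42.0 variance-stabilised counts, 500 most variable genes) was removed. TMM normalization and filterByExpr (at least 10 counts) preceded the test in edgeR 4.0.16 (quasi-likelihood, robust, R 4.3.3), with Benjamini-Hochberg adjustment and a threshold of 0.05. Intervals are 95%, SE is the log2 fold change over the root of F, and a fold change compares gene counts. CPM used TMM totals, and log2 CPM a prior count of 2. Positions, symbols and exon lengths are those of GENCODE M21, and sequences are RefSeq's.

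Correlations were tested two-sided with 100000 permutations (numpy 2.4.6, ranks by scipy 1.17.1), or all of them in MS alone and over set means, and adjusted over their family. The members, lists and tests were chosen with earlier results of these data known. Genes named are the members, 12 immediate early genes, the smallest p in each direction of a pathway list, and the 5 genes most like each member. On simulated data with 18146 genes, 200 of them changed, edgeR recovered 52.6% of genes changed 1.3-fold and 87.3% of those changed 2-fold between MS and SR. It called 6 unchanged genes. These shares are over all changed genes, in a setting with more changes than the 2 genes called here. They do not give the power for a single gene, and the SE was 0.201 for Ntf3, 0.241 for Ngfr and 0.354 for Fos.

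Alternatives were all 21 libraries, DESeq2, no filter, DESeq2's size factors, the number range as a term, the set as a random block (limma 3.58.1), counts summed by set, and each mouse or set left out. Terms for the granule, striatal and length scores were added after seeing the data. Some genes of the lists are not reported here.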

Additional observations from a re-analysis of the deposited data

Results flagged for a closer look

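Values in MS were checked for a mouse far from the others by Dixon's test, in 6 genes (the members and Fos), and chance marks about 1 in 20 such groups. SR, with 12 mice, was not checked. There the highest Fos was 23.9 CPM in SR8 with 15.6 CPM next, and the lowest Ntrk2 was 464 CPM in SR3 with 501 CPM next. Ntrk2 in MS7 was 450 CPM, where the other 7 MS mice had 542 to 572 CPM. Fos in MS4 was 29.0 CPM, where the other 7 had 5.89 to 11.5 CPM. MS7 also had the lowest transcript length trend and MS4 the lowest granule cell score among the MS mice.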

How the results depend on the processing

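No member was called in any alternative except Ntrk3 without set C (-0.14, adjusted p = 0.0426 by edgeR). Genes called over the whole table, 2 by edgeR, numbered 119 by DESeq2, 1 with all 21 libraries, 1 without the filter and 0 with summed sets, and 0 to 340 when mice or sets were left out (109 without MS8, 109 without MS9, 340 without set C and 0 without sets A, B, D or F). The sign turned for Fos without MS4 (-0.10) and without set A (-0.11), and without set B for Bdnf (0.0245), Ntf3 (0.0126) and Ngfr (-0.29). Left-out ranges of the log2 fold change were -0.17 to 0.0245 for Bdnf, -0.57 to 0.0126 for Ntf3, 0.00 to 0.08 for Ntrk2, -0.14 to -0.0668 for Ntrk3, -0.29 to 0.45 for Ngfr and -0.11 to 0.68 for Fos. The cause was not tested.

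Bdnf with Fos stayed negative in all alternatives and missed the adjusted threshold in MS alone (-0.521), relative to set means (-0.553), over set means (-0.794), in the low range (-0.586), relative to range means (-0.5865), and relative to lines on the granule (-0.107) and striatal (-0.490) scores. Relative to set means, 0 other early genes and 0 other members passed, Bdnf with Junb turned to 0.294 and Ntrk2 with astrocytes to 0.1475. Without the 2 extreme mice 2 early genes and 0 other members passed. The slope difference was -0.17 with all 21. Genes with a called share between sets rose from 1 to 2 with all 21 and with variance-stabilised counts. No paired analysis was possible because the labels give no replicate numbers and the sets lie within conditions. Depth limits Ngfr and Ntf3 most.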
